A study of Homo sapiens with 3 samples.

Results

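Fibrinogen, complement and hepatic plasma protein genes were examined in A549 cells exposed to cordycepin or to cordyceps. The set held 10 genes, namely the fibrinogen chain genes FGA, FGB and FGG, the complement genes C1R, C1S, C3 and CFB, and the plasma protein genes SERPINA1, HP and APOH. Its members were chosen by name, with earlier results of these data known. Every non-control probe whose transcript accession belongs to one of these symbols was used. This gave 15 probes among 58201 on the array and 10 genes among 22431 named genes with a value.

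A549 is an established human lung adenocarcinoma cell line with features of alveolar epithelium. The medium of all groups, control included, was DMEM that contained zinc sulfate at 16.7 μM, troglitazone (a PPARγ agonist) at 10 μM and nicotinamide at 10 mM. Serum (fetal bovine) made up 10% of it, and penicillin-streptomycin 1%. The control group received 0.1% DMSO, the cordycepin group 60 μg/mL cordycepin and the cordyceps group 100 μg/mL cordyceps, each for 48 h. Cordycepin is a deoxyadenosine analog of adenosine found in Cordyceps fungi, and the make-up of the cordyceps preparation is not described in the sources used here. RNA of each group was hybridized to 1 single-colour Agilent array, so no group had a replicate and no test between conditions was possible. The precision was limited by the 3 arrays, and each comparison below is between these arrays.

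Fibrinogen is assembled from Aα, Bβ and γ chains, which thrombin converts to fibrin during clotting. Complement is a cascade of plasma proteins in which C1r and C1s start the classical pathway, factor B serves the alternative pathway and both routes meet at C3. The liver secretes most of these proteins, and many of them are acute phase proteins whose synthesis interleukin-6 raises through STAT3 and C/EBP factors, while epithelial cells can also make several of them.

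To show the regulatory sequence behind the genes that differed most between arrays, the 250 bases before the transcription start are printed for FGA, FGB, FGG, APOH and CFB. The sequences are those of RefSeq on GRCh38.p14, 5′ to 3′ on the strand of the gene, and capitals mark matches to 6 short motifs on either strand. The FGA window is chr4:154590743-154590992 on the minus strand, the FGB window is chr4:154562761-154563010 on the plus strand at the downstream of its listed starts, and the FGG window is chr4:154612657-154612906 on the minus strand. The APOH window is chr17:66229416-66229665 on the minus strand, and the CFB window is chr6:31945845-31946094 on the plus strand.
FGA: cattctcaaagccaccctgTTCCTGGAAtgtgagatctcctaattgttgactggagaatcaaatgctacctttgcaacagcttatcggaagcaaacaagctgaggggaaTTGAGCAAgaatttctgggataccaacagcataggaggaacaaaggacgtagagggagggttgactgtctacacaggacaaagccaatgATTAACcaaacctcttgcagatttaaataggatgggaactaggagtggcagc
FGB: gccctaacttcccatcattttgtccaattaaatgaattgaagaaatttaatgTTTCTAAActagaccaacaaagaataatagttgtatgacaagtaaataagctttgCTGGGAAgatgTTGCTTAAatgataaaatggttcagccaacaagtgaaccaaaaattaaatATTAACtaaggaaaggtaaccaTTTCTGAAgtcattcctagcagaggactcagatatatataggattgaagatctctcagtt
FGG: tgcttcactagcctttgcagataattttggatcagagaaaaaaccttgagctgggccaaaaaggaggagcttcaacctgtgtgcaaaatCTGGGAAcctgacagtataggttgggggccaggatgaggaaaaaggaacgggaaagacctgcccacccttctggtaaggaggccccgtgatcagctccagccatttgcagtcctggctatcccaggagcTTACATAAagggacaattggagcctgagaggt
APOH: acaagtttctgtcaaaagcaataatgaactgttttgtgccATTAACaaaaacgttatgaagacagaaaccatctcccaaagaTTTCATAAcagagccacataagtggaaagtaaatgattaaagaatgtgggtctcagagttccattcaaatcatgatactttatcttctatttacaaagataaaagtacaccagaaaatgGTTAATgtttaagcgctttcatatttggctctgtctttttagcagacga
CFB: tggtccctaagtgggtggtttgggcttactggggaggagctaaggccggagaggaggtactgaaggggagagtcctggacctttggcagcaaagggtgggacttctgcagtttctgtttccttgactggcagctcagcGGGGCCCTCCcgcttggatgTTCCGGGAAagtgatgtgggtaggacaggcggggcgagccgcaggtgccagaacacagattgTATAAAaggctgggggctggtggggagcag

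The motifs searched on both strands were the interleukin-6 response element of acute phase genes (CTGGGAA), the spaced palindrome bound by STAT proteins (TTCNNNGAA) and a C/EBP pattern (TTNNGNAA). HNF1, a liver and epithelial transcription factor, was represented by the letters GTTAAT. The core promoter element was represented by TATAAA, and NF-kB by its named consensus. CTGGGAA stood 143 to 137 bases before the FGB start and 161 to 155 bases before the FGG start, and 9.15% of all 35116 promoter windows held it. GTTAAT, present in 6.23% of all windows, was found 82 to 77 bases before the FGB start, 52 to 47 bases before the FGA start, and at 210 to 205 and 49 to 44 bases before the APOH start. TTNNGNAA was in 33.2% of all windows and in the FGA, FGB, FGG and APOH windows, with 3 matches in FGB. The CFB window held an NF-kB consensus 112 to 103 bases before the start, a STAT match at 92 to 84 and the core promoter element at 30 to 25, motifs found in 9.96%, 6.57% and 10.7% of all windows. The FGA window also held a STAT site, 231 to 223 bases before the start. None of the matches in these 5 windows overlapped another. A match describes letters in the window only, and neither factor binding nor the start used by A549 cells was measured. RefSeq listed 10 windows for 7 of the member genes, some of which overlap because a gene has several starts. Of these 10, 8 held TTNNGNAA, 6 held GTTAAT and 3 held a STAT match. C1R and SERPINA1, whose probes lay above control with both treatments, each had a window with TTNNGNAA and GTTAAT. That C1R window also held a STAT match. C3, C1S and HP had no entry in the promoter table used here.

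The probes covered every member gene. All 15 were well above background in control cells, and 14 with either treatment. Each probe was a single spot, and none of the member spots was saturated or flagged as an outlier. Signals are Agilent processed signals, and ratios are differences of log2 signal after each array's 75th percentile was subtracted. That percentile was a signal of 260.1 for control, 224 for cordycepin and 260.2 for cordyceps. The error given with a ratio combines the scanner software's error of the spot on each array, and it does not include variation between cultures. As a second measure of precision, the log2 ratios of the 2 brightest probes of the same gene implied a standard deviation of 0.37 for a single probe with cordycepin (3675 genes) and of 0.36 with cordyceps (3418 genes). Part of the cordyceps array, the corner with rows above 240 of 384 and columns above 82 of 164, held local backgrounds of up to 113 against 50 in that corner on each of the other arrays. The corner contained 3 member probes, 2 for FGA and the single APOH probe, and these are named as corner probes wherever their values appear.

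The arrays carried the epithelial markers of the line and lacked several defining liver markers. All 9 markers of lung epithelium and A549 cells were detected on every array. Of 8 hepatocyte markers, ALB, AFP, CYP3A4 and CYP2E1 were not well above background on any array. CPS1, a urea cycle enzyme, had a signal of 37780 on the control array, 8909 with cordycepin and 28433 with cordyceps, and made up nearly all of the summed hepatocyte marker signal of 38177, 9095 and 28688. ASGR1, a hepatic receptor subunit, had log2 ratios of -1.68 and -0.93, and APOA1 of 0.24 and 0.10. TTR was detected on the control array alone. Of the alveolar type II markers, SFTPB and SFTPA1 were not well above background on any array. The surfactant gene SFTPC and the transcription factor gene NKX2-1 were well above background on the control and cordycepin arrays but not with cordyceps. Signals on the control, cordycepin and cordyceps arrays were 85.0, 55.7 and 34.7 for SFTPC, and 22.7, 38.7 and 33.5 for NKX2-1. Leukocyte markers PTPRC and CD14 were detected on all arrays and CD3E on none, 1 of 4 fibroblast markers was detected on each array, and endothelial markers numbered 2 of 3 detected on the control and cordycepin arrays and 0 on the cordyceps array. The lowest detected signal was 18.6 on the control array, 21.8 with cordycepin and 34.5 with cordyceps. For a dim marker, missing detection with cordyceps alone is therefore not by itself a fall. Set against that lowest detected signal, the cordyceps log2 ratio was at most -1.29 for SFTPC, while NKX2-1 had a bound of 0.

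With cordycepin, all fibrinogen probes lay below the control array, all complement probes lay above it by less than 2-fold, and APOH was lower. At the 2-fold threshold, 4 of the 15 member probes were lower, against 3.62% of the 30164 probes compared, and 0 were higher, against 7.07%. Because earlier results of these data were known when the members were chosen, such shares, here and below, give scale only. The 4 were FGB, FGG, APOH and 1 FGA probe, and 3 of them lay outside the corner. At 1.5-fold, 5 probes were lower against 11.8% of all probes and 3 were higher against 15.4%. Across the 25996 probes that both arrays measured, the median was -0.03 on the log2 scale, and 47.1% lay above 0.

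With cordyceps, CFB was the single member probe at least 2-fold higher, and APOH and 1 FGA probe were at least 2-fold lower. The background shares among 29259 probes were 5.21% higher and 3.21% lower. Outside the corner 1 of 12 member probes was higher and 1 was lower, against 2.8% and 3.29% of 23328 probes. At 1.5-fold, 2 members were higher against 9.08% of all probes, and 6 were lower against 12.8%. Across the 23740 probes that both arrays measured, the median was -0.12, and 37.7% lay above 0. Both treatments were compared with the same control array, so an error on that array enters both ratios of a probe. The doses of cordycepin and cordyceps differ. Where an order of the treated arrays is given, it describes these arrays and does not compare the agents at an equal dose.

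**Figure D1:**
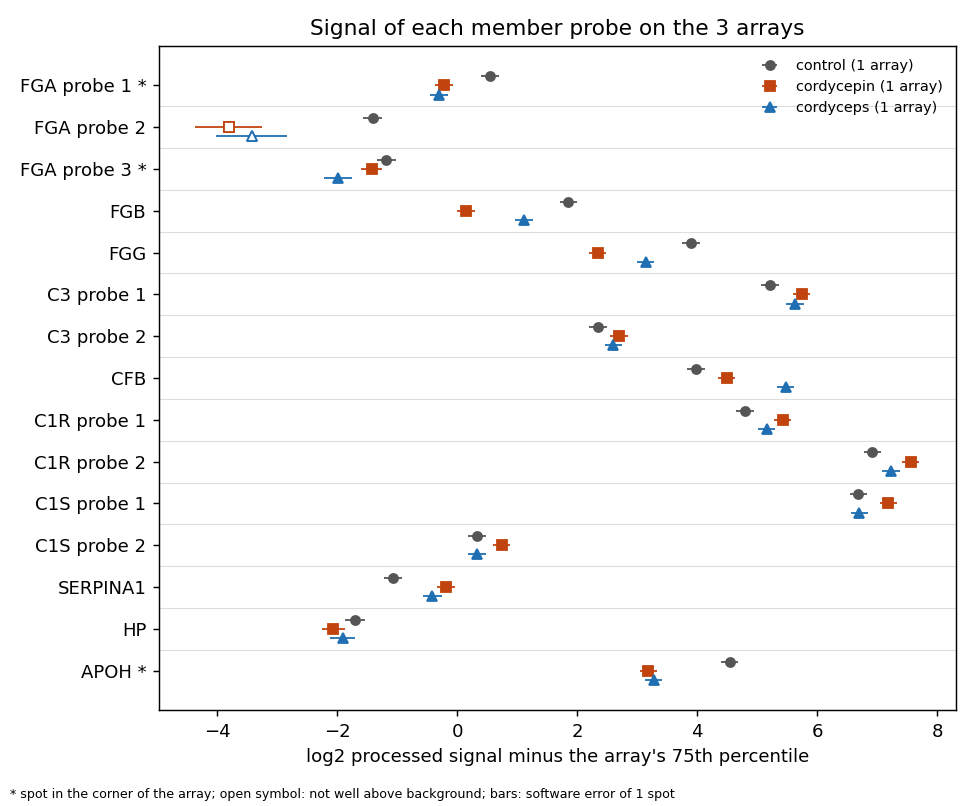
Normalised level of each of the 15 member probes on the 3 arrays, as log2 processed signal minus the 75th percentile of the array, with bars for the software's error of 1 spot, open symbols for values not well above background and an asterisk for corner probes (compare along a row only). The 3 fibrinogen genes, APOH and HP sit highest on the control array, and CFB sits highest on the cordyceps array.

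The fibrinogen genes lay below the control array with both treatments. FGB, which encodes the Bβ chain, gave a signal of 938 in control cells, 248 with cordycepin and 563 with cordyceps (probe A_23_P136125). The control array was highest and the cordycepin array lowest. The FGB log2 ratio was -1.70 ± 0.21 with cordycepin, a 3.26-fold lower level that 0.431% of measured probes equalled or went below. With cordyceps it was -0.74 ± 0.21, or 1.67-fold lower, and 7.42% of measured probes were as low.

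FGG, which encodes the γ chain, had a signal of 3869 in control cells, 1138 with cordycepin and 2295 with cordyceps (probe A_23_P148088). Its order over the arrays was the order seen for FGB. The ratio to control was -1.55 ± 0.20 on the log2 scale with cordycepin, 2.93-fold lower, a value reached by 0.612% of measured probes. With cordyceps FGG was at -0.75 ± 0.20, 1.69-fold lower, and 6.93% of measured probes were as low. The FGB and FGG spots lie far apart on the array and outside the corner. In RNA from a whole culture, fewer cells expressing a gene and less RNA per cell cannot be told apart.

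FGA, which encodes the Aα chain, had 3 probes that lay below control to different degrees. The probe assigned to the transcript of the extended αE chain (A_23_P44274, outside the corner) gave 98.2 ± 11.1 on the control array, 16.0 ± 6.22 with cordycepin and 24.3 ± 9.96 with cordyceps. It was highest in control cells and not well above background on either treated array. The level was therefore at least 3.88-fold lower with cordycepin and at least 2.85-fold lower with cordyceps, taking the lowest detected signal of the treated array in place of the measured value. The other probes, both assigned to the shorter α chain transcript, lay in the corner. Of these, A_23_P375372 gave 380.3, 192 and 211 on the control, cordycepin and cordyceps arrays, with log2 ratios of -0.77 ± 0.21 and -0.85 ± 0.21. A_24_P282251 gave 115, 83.6 and 66.0, with log2 ratios of -0.24 ± 0.23 and -0.80 ± 0.28. Neither corner probe reached 2-fold with either treatment. The FGA probes thus differed in size with cordycepin, with 1 past 2-fold as a bound and the others short of it. With normexp background correction the log2 ratios of the αE probe were -0.74 with cordycepin and -0.75 with cordyceps, and neither passed 2-fold. The corner probes then had -0.66 and -0.04 with cordycepin.

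Across the 5 fibrinogen probes the median log2 ratio was -1.55 with cordycepin and -0.80 with cordyceps, and these medians are the same with the αE probe at its bound. All 5 lay below 0 with each treatment, under every scaling tried. The spots surrounding the FGB and FGG spots on the array, within 10 rows and columns, had median log2 ratios of 0.04 and -0.05 with cordycepin and -0.01 and -0.15 with cordyceps. CPS1 and ASGR1, the hepatocyte markers with the lowest ratios, lay below control with both treatments, as the fibrinogen genes did. APOA1, also measured on every array, lay above control, at log2 ratios of 0.24 with cordycepin and 0.10 with cordyceps. The remaining hepatocyte markers were not well above background on either treated array. Markers of lung epithelium and A549 cells ranged from -1.51 (EPCAM) to 0.62 with cordycepin and from -0.81 to 0.08 with cordyceps. What part these marker differences had in the fibrinogen values was not tested.

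**Figure D2:**
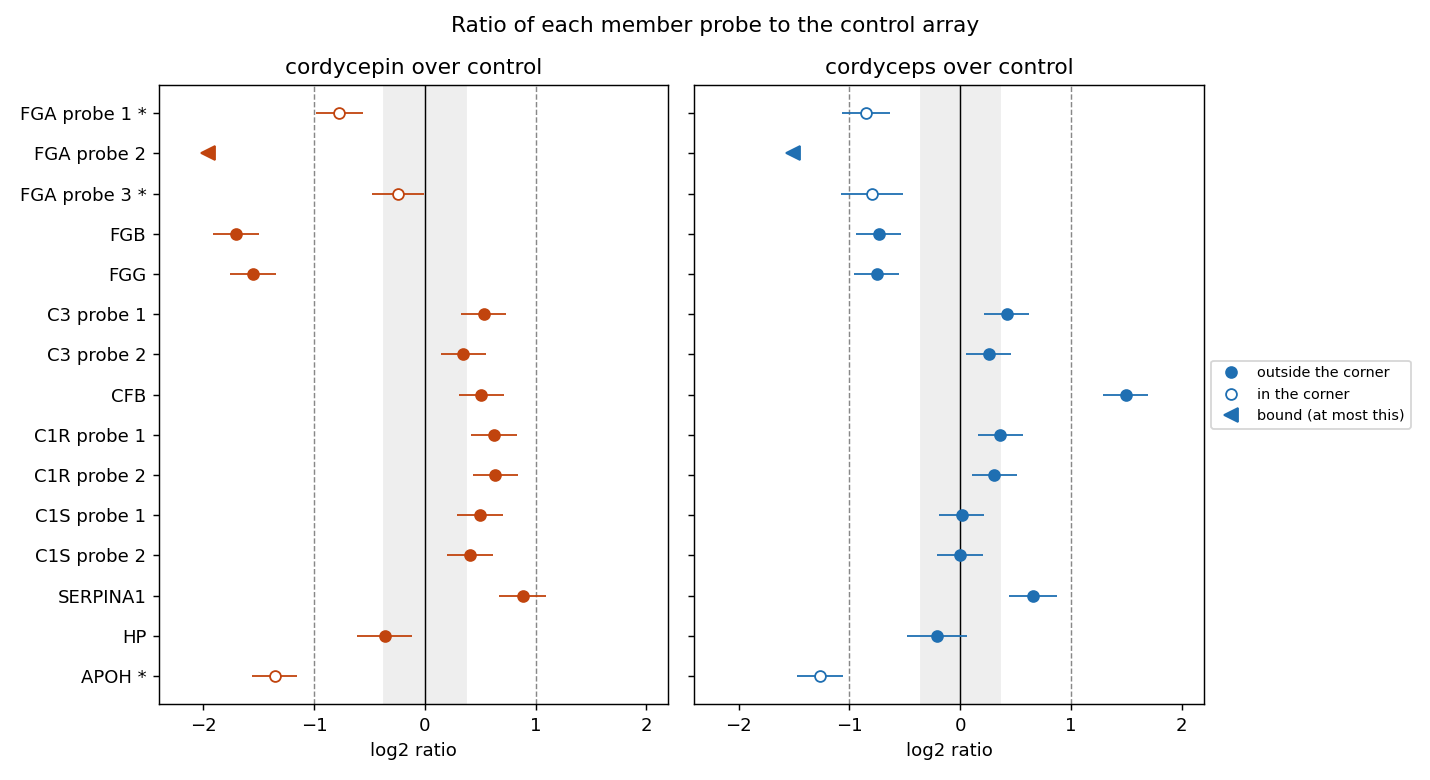
Log2 ratio of each member probe to the control array with cordycepin (left) and cordyceps (right), where bars are the combined software error of both spots, dashed lines mark 2-fold, the grey band is 1 standard deviation of a single-probe ratio, open circles are corner probes and triangles are bounds. With cordycepin the fibrinogen probes lie at or below -0.24 and the 7 complement probes between 0.35 and 0.64.

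The complement genes lay mostly at or above control. C1R, which encodes a serine protease of the C1 complex, was measured by a pair of probes. The first (A_23_P125423) gave 7238, 9627 and 9299.7 on the control, cordycepin and cordyceps arrays. The second (A_33_P3393821) gave 31434, 42189.8 and 38972. Both were highest with cordycepin and lowest in control. Their log2 ratios were 0.63 and 0.64 with cordycepin and 0.36 and 0.31 with cordyceps, each with an error of 0.20. With scaling on the median the cordyceps ratios were the larger, at 0.63 and 0.58 against 0.36 and 0.37 with cordycepin. The first probe lies at row 374 and column 82, on the border of the corner and just outside it.

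C1S, which encodes the protease that C1r activates, was above control with cordycepin and, in the main setting, nearly level with control with cordyceps. Its first probe (A_23_P2492) gave 26777, 32602 and 27039.6, and the second (A_33_P3230478), assigned to another transcript, gave 328, 375 and 327. The cordycepin array was highest for both. The log2 ratios were 0.50 and 0.41 with cordycepin and 0.01 and -0.0056 with cordyceps, and the sign of the last changed to positive under 4 of 8 alternatives. With scaling on the median the order of the treated arrays reversed. The ratios were then 0.23 and 0.14 with cordycepin and 0.28 and 0.26 with cordyceps.

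C3, which encodes the central component of the cascade, gave 9636, 12002 and 12898 with its first probe (A_23_P101407). The second (A_33_P3347869) gave 1324, 1453 and 1583. In both the control array was lowest and the cordyceps array highest by signal. After scaling, the log2 ratios were 0.53 and 0.35 with cordycepin and 0.42 and 0.26 with cordyceps, each with an error of 0.20. Because the 75th percentile of the cordycepin array was lower, this scaling placed cordycepin above cordyceps for both probes. Scaling on the median placed cordyceps above cordycepin.

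CFB, which encodes factor B, the protease of the alternative pathway, gave a signal of 4100.3 on the control array, 5041 with cordycepin and 11549 with cordyceps (probe A_23_P156687). The cordyceps array stood well above both others. The CFB log2 ratio was 0.51 ± 0.20 with cordycepin, or 1.43-fold. With cordyceps it was 1.49 ± 0.20, or 2.82-fold, and 1.53% of measured probes were as high. The CFB spot was the single member spot whose local background was marked as outlying on the cordyceps array, at 51 against 45 in control and 46 with cordycepin. Among spots within 10 rows and columns of it, 22.5% had an outlying background, the 174 measured probes there had a median log2 ratio of -0.09, and 3.45% were at least 2-fold higher. The part of this background in the CFB value was not tested.

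Over the 7 complement probes the median log2 ratio was 0.51 with cordycepin and 0.31 with cordyceps. All 7 were above 0 with cordycepin under each of the 8 alternatives that give a ratio, the lowest being 0.08 for the second C3 probe with scaling on the median, and 6 of 7 were above 0 with cordyceps in the main setting. Taken singly with cordycepin, between 10.1% and 21.5% of all measured probes were as high as a given complement probe.

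**Figure D3:**
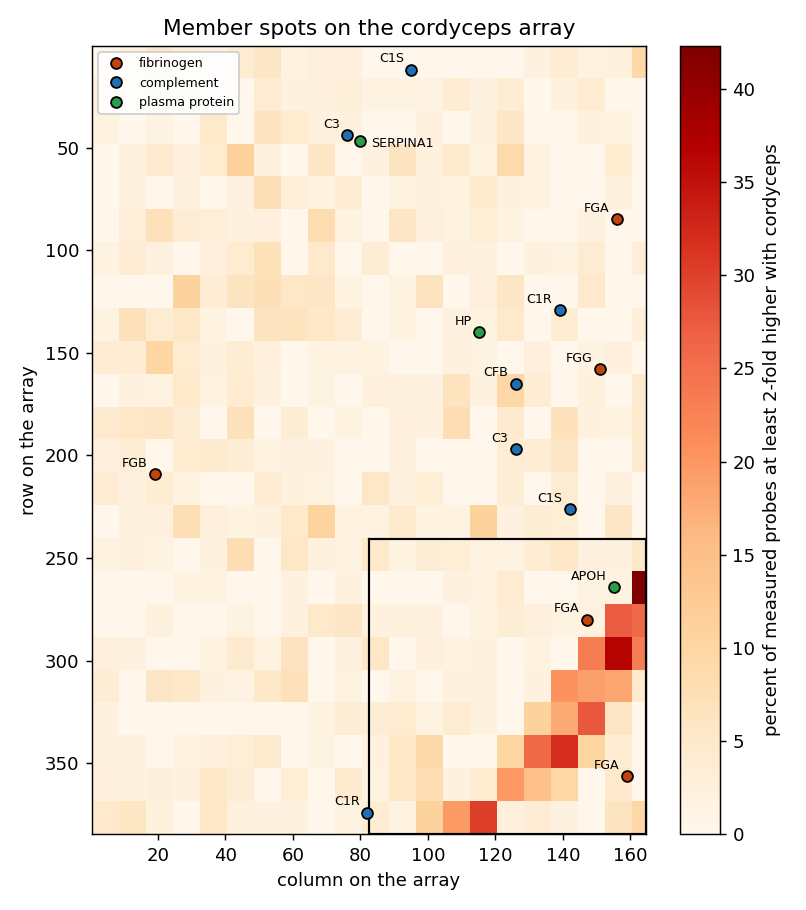
Position of the member spots by row and column on the cordyceps array, over the percent of measured probes in each block that were at least 2-fold higher with cordyceps than control. The outlined corner holds a band of blocks with high percentages, and the APOH spot and 2 FGA spots lie inside the outline while FGB, FGG and CFB lie outside it.

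The plasma protein genes did not share a direction. SERPINA1, which encodes alpha-1 antitrypsin, the main inhibitor of neutrophil elastase, gave 124 on the control array, 197 with cordycepin and 195 with cordyceps (probe A_23_P218111). Both treated arrays were higher than control. The log2 ratios were 0.89 ± 0.21 and 0.66 ± 0.22, or 1.85-fold and 1.58-fold, and 5.47% and 6.71% of measured probes were as high.

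HP, which encodes the haemoglobin-binding protein haptoglobin, gave 80.1, 53.7 and 69.3 on the control, cordycepin and cordyceps arrays (probe A_23_P206760). These signals were close together. The log2 ratio was -0.36 ± 0.25 with cordycepin and -0.21 ± 0.27 with cordyceps, the latter turning to 0.06 with scaling on the median. Both lay within 1 standard deviation of a single-probe ratio. The haptoglobin-related gene HPR is a near copy of HP, its probe had log2 ratios of -0.02 and 0.02, and cross-hybridisation between them was not tested.

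APOH, which encodes beta-2-glycoprotein I, a phospholipid-binding plasma protein, gave a signal of 6054 on the control array, 2042 with cordycepin and 2519 with cordyceps (probe A_23_P38244, in the corner). Both treated arrays were far below control. APOH was 2.56-fold lower with cordycepin, a log2 ratio of -1.35 ± 0.20, and 2.40-fold lower with cordyceps, at -1.27 ± 0.20. With scaling on the median the cordyceps fall was smaller, and it no longer reached 2-fold. Of measured probes, 1.03% and 0.981% were as low. The local background of the APOH spot was 43, 44 and 43 on the control, cordycepin and cordyceps arrays. Around it, 9.58% of 167 measured probes were at least 2-fold higher with cordyceps and 3.59% at least 2-fold lower. APOH also belongs to the lists of lowered genes that the study drew from the same arrays, so its place there is not independent of these values.

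**Figure D4:**
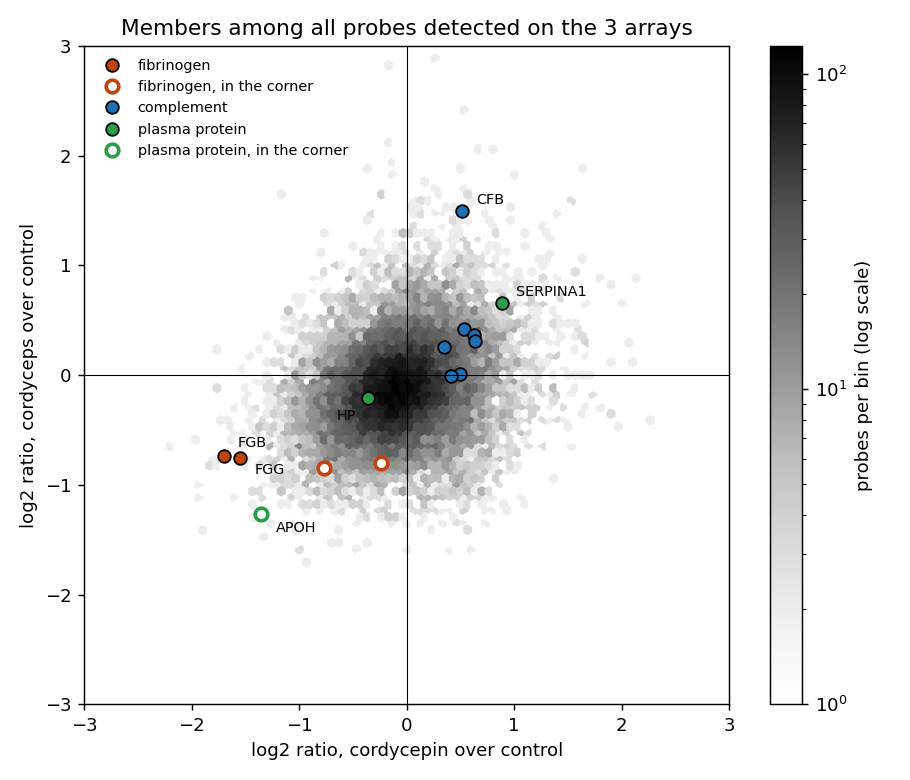
Log2 ratio with cordycepin (x axis) against log2 ratio with cordyceps (y axis) for probes detected on all 3 arrays, in grey bins shaded by number, with member probes coloured by role, open where in the corner and without the αE probe of FGA; both axes share the control array, and 76 of 23412 probes lie beyond the axes. FGB and FGG lie left of 0 at -1.70 and -1.55 with cordycepin, and CFB lies above 0 at 1.49 with cordyceps.

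The genes with the pair of ratios most like that of FGB, outside the lists and the corner, were found among 11172 genes measured on all 3 arrays by the straight-line distance over both log2 ratios. FCGBP, a mucus-associated protein gene, was nearest at a distance of 0.11, with log2 ratios of -1.78 and -0.67. SLC4A4, a bicarbonate transporter gene, followed at 0.11, then SPDEF, an epithelial transcription factor gene, at 0.12, RAP1GAP at 0.13 and CYB5B at 0.14. FGG lay at a distance of 0.15 from FGB. These distances are smaller than the error of a single ratio, so their order is not resolved.

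For context, 5 lists of related genes were counted by the brightest probe of each gene. Over all genes, 5.95% of 15915 were at least 2-fold higher and 3.58% lower with cordycepin, and 4.19% of 15599 were higher and 3.15% lower with cordyceps. The median log2 ratio over all genes was -0.05 with cordycepin and -0.11 with cordyceps.

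Of 24 other complement component genes, 11 could be compared with cordycepin, of which 0 were higher and 0 lower at 2-fold, with a median log2 ratio of -0.34. With cordyceps 2 of 11 were higher and 1 lower, with a median of 0.12. C8G, which encodes the γ chain of C8, had log2 ratios of 0.52 and 1.28 with cordycepin and cordyceps, and its other probe gave 0.57 and 1.21. COLEC11, a lectin pathway gene, had 0.26 and 1.04. FCN3, a ficolin gene with its probe in the corner, had -0.26 with cordycepin and was at least 2.18-fold lower with cordyceps. Of the brightest genes in control cells, C5 (in the corner) had -0.78 and -0.35, CFD, the factor D gene, had -0.80 and 0.20, and C1RL had -0.42 and 0.12.

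Among 26 genes of complement regulators and receptors, 20 were compared with cordycepin, of which 1 was higher and 3 were lower, with a median of -0.12. CFI, which encodes the protease that inactivates C3b, had log2 ratios of -1.21 and -0.30. ITGB2, an integrin chain of complement receptors, had -1.37 and -0.90. C4BPB was at least 4.22-fold higher with cordycepin, with signals of 5.05 in control, not well above background, and 67.8 with cordycepin. With cordyceps, 0 of 18 were higher and 1 was lower, with a median of -0.38. That gene was CLU, in the corner, 2.01-fold lower with cordyceps and at -0.17 with cordycepin, while CD55 had 0.36 and 0.11.

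Of 34 coagulation and fibrinolysis genes, 24 were compared with cordycepin, of which 3 were higher and 5 lower, 2 of the lower ones outside the corner, with a median of 0.02. TFPI2, a serine protease inhibitor gene, had log2 ratios of 1.95 and -0.10, and PLAT, the tissue plasminogen activator gene, had 1.94 and -0.46. F7, the factor VII gene, had -1.73 and -0.22, and F5, in the corner, had -1.55 and 0.09. F13B, in the corner, was at least 2.69-fold lower with cordycepin, and at least 1.98-fold lower with cordyceps. The others called with cordycepin, named after their values were seen, were F2, the prothrombin gene, at -1.14, and KLKB1, at least 2.15-fold higher. PROS1, the protein S gene, also in the corner, had -1.18 and -1.06, and its second probe gave -0.91 with cordyceps. With cordyceps, 0 of 23 were higher and 2 were lower, with a median of -0.22. Beside PROS1, the lower gene was THBD, the thrombomodulin gene, at 0.58 with cordycepin and -1.04 with cordyceps. The urokinase gene PLAU had 0.32 and 0.38, and FGL1, a fibrinogen-like gene, had -0.47 and -0.44.

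Of 42 other hepatic plasma protein genes, 41 had a probe and 25 were compared with each treatment. With cordycepin 4 were higher and 3 lower, with a median of -0.33, and outside the corner 3 were higher and 1 lower. With cordyceps 3 were higher and 1 lower, with a median of -0.11, and outside the corner 2 were higher and 0 lower. SERPINF1, which encodes pigment epithelium-derived factor, had log2 ratios of 2.98 and -0.20, and LRG1 had 1.60 and -0.34. The orosomucoid genes ORM1 (in the corner) and ORM2 had 1.01 and 1.04 with cordycepin and 1.85 and 1.94 with cordyceps, and cross-hybridisation between these near copies was not tested. SERPINA3, the alpha-1 antichymotrypsin gene, had 0.58 and 1.62, and its other probes gave 2.03 (in the corner) and 2.07 with cordyceps. AHSG, in the corner, had -0.36 and -1.31, and the ceruloplasmin gene CP, in the corner, had -1.05 and -0.68. The other CP probe, outside the corner, gave -0.96 and -0.34 and did not reach 2-fold. The other lower genes with cordycepin, named after their values were seen, were APOM at -1.07 and the transferrin gene TF, in the corner, at least 2.31-fold lower. A1BG had -0.40 and 0.28, and APOC1 had -0.58 and -0.63.

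Of 31 acute phase signalling genes and hepatic transcription factors, 30 had a probe and 29 were compared with each treatment. With cordycepin 3 were higher and 4 lower, with a median of -0.22, and with cordyceps 3 were higher and 1 lower, with a median of -0.14. IL6 had signals of 195 in control cells, 557 with cordycepin and 1118 with cordyceps, with log2 ratios of 1.73 and 2.52, and its second probe was not detected. SOCS1, a feedback inhibitor of cytokine signalling, had 1.36 and 1.14. IL11 had -1.40 with cordycepin and 1.61 with cordyceps. The receptor gene IL6R had -0.74 with cordycepin and was at least 2.45-fold lower with cordyceps. Its other probe gave -0.00077 with cordycepin, so the IL6R probes disagreed there, and a bound of -1.02 with cordyceps. OSMR had 1.17 and -0.13, but its other probe, in the corner, gave -1.03 with cordycepin, so the probes disagreed. The bile acid receptor gene NR1H4 had -1.14 and -0.26, and IL1R1 and IL11RA (in the corner), named after their values were seen, had -1.07 and -1.01 with cordycepin. CEBPB had 0.31 and 0.23, CEBPD had -0.26 and -0.39, and FOXA2, in the corner, had -0.26 and -0.24.

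**Figure D5:**
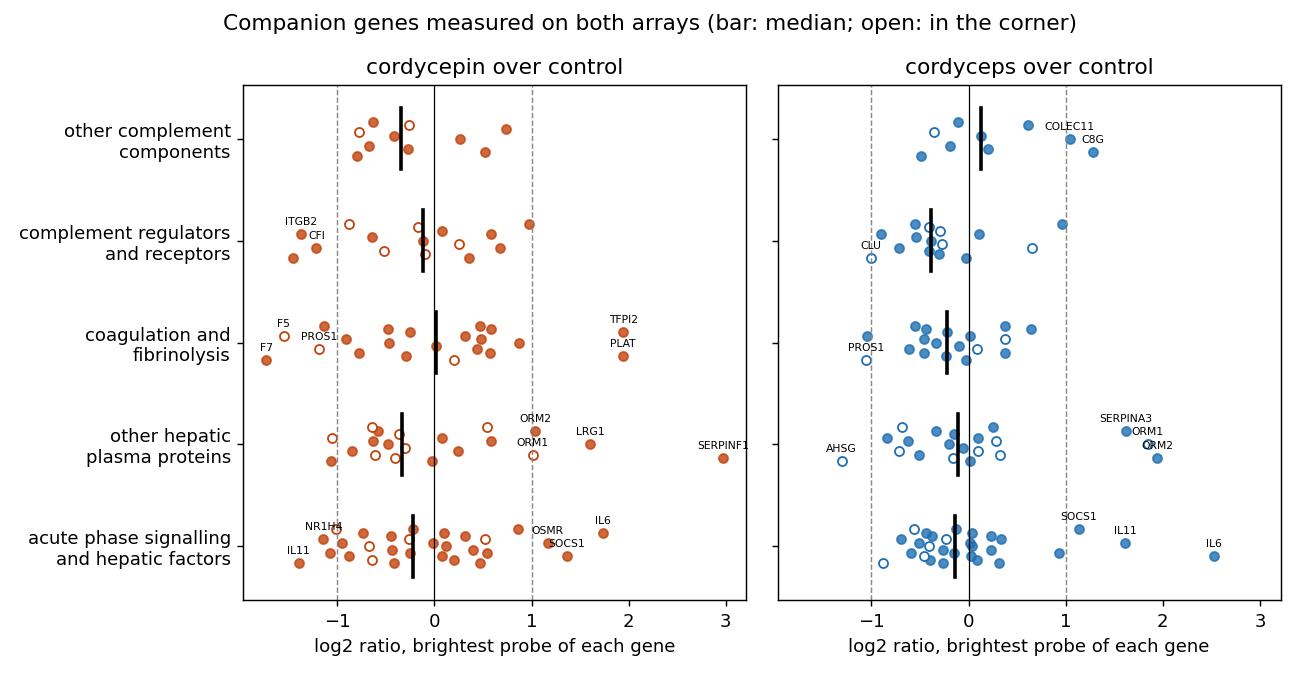
Log2 ratio to control of the brightest probe of each gene measured on both arrays in the 5 lists of related genes, with cordycepin (left) and cordyceps (right), where black bars are list medians, dashed lines mark 2-fold and open circles are corner probes. SERPINF1 at 2.98 is the rightmost point with cordycepin, and IL6 at 2.52 with cordyceps.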

How the data were processed

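RNA from A549 cells of 3 conditions was hybridized to 1 Agilent array per condition. The authors deposited scanner output with intensity values that were background-subtracted within each array by Feature Extraction 11.5.1.1, per the file headers, and were not scaled between arrays. They also deposited a value table with the same intensity for the member probes, and 99.8% of all probes lay within 0.1% of it. The methods name Cy3 and Cy5, but each deposited file holds a single Cy3 channel. The software used for fold changes by the study was not used here.

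Signals were log2-transformed and centred on the 75th percentile of each array, taken over probes that are not controls. Spots of a probe were averaged, and 58191 of 58201 probes had a value on every array. Control spots and outlier spots were left out. Detection required 50% or more of a probe's spots to be well above background, and 28494, 27666 and 24505 probes passed on the control, cordycepin and cordyceps arrays. A probe detected on 1 array of a pair got a bound: the bright value against the higher of its own value and the lowest detected signal of the dim array. Changes were counted at 2-fold, with 1.5-fold and 3-fold as alternatives, and no test was run because each group had 1 array.

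Accessions of the array design (build hg19) were matched without versions to RefSeq names of GRCh38.p14, which named 31100 probes for 22435 symbols. Sequences of probes were not used here, so cross-hybridisation was not tested. The members and the 5 lists (complement components, complement regulators and receptors, coagulation and fibrinolysis, other hepatic plasma proteins, acute phase signalling and hepatic factors) were chosen with earlier results of these data known. The text names every member and defining marker, the called genes of each list up to the 6 largest, its 3 brightest in control cells, and the 5 genes nearest to FGB. AGT had no named probe, and some items of the lists are not reported here. The calling steps were tested on simulated data in which only bright probes changed, by well over 2-fold. The simulated noise was below the standard deviation of a single-probe ratio given above. That test therefore does not cover changes near 2-fold or dim probes. Alternatives covered scaling, background correction (normexp in limma 3.58.1 with an offset of 50, on median spot signals because mean signals were not in the files), the corner, the detection filter, the fold threshold and the rule for genes with several probes. Python 3.11.15, numpy 2.4.6, pandas 2.3.3, matplotlib 3.10.9 and R 4.3.3 were used.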

Additional observations from a re-analysis of the deposited data

How the results depend on the processing

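No paired analysis was possible because each group had 1 array. Under 8 alternatives that give a ratio, 231 of the recomputed member ratios moved by less than the technical spread and 3 moved by more, all of them FGA probes under normexp; the cause was not tested. With cordycepin, 0 probes were higher at 2-fold and 3 at 1.5-fold, and 4 were lower at 2-fold and 2 at 3-fold. The 4 cordycepin calls of lower became 5 at 1.5-fold and 5 with median scaling. They became 3 with normexp, 3 with the corner left out and rescaled, and 3 when detection on both arrays was required. Counting genes by the brightest probe gave 3, and by the median probe 3. With cordyceps, 1 was higher at 2-fold, 2 at 1.5-fold and 0 at 3-fold. The 2 cordyceps calls of lower became 6 at 1.5-fold and 0 at 3-fold. They became 1 with median scaling, 1 with normexp, 1 with the corner left out and rescaled, 1 when detection on both arrays was required, 1 counting genes by the brightest probe, 1 counting genes by the median probe, and 1 with the corner probes left out of the counts, an alternative chosen after seeing the data. Scaling on the median shifted all ratios by -0.26 with cordycepin and 0.27 with cordyceps, and no scaling shifted cordycepin ratios by -0.21. The FGB ratio with cordycepin ranged from -1.97 to -1.37, FGG from -1.82 to -1.48 and APOH from -1.62 to -1.28, and CFB with cordyceps from 1.46 to 1.76. Signal over background limits FGA and HP most. With 1 array per group no result has a replicate check.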

Other observations

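The genes next to the members on the chromosome were read by the brightest probe, a choice made after the member values were seen. The fibrinogen genes lie together on chromosome 4 between PLRG1, a splicing factor gene, and LRAT. PLRG1 had log2 ratios to control of 0.08 with cordycepin and 0.37 with cordyceps, and LRAT was not well above background on any array. Next to C1R and C1S, LPCAT3 had -0.50 and -0.58 and C1RL had -0.42 and 0.12. Near CFB, NELFE (in the corner) had -0.08 and -0.01 and ZBTB12 was not well above background on any array. The complement gene C2, which lies directly beside CFB, had -0.68 and -0.19. Next to APOH, CEP112 had -0.56 and -0.61 and PRKCA had -0.82 and -0.20. Next to C3, TNFSF14 had -1.91 and -0.99 and GPR108 had -0.20 and 1.01, both in the corner. Next to SERPINA1, SERPINA6 had -0.30 and 0.10, and SERPINA11, not well above background on the control and cordycepin arrays, had a signal of 179 with cordyceps, both in the corner. Next to HP, DHODH had -0.09 and 0.03. EPCAM, an epithelial adhesion molecule gene outside the lists, had signals of 1066 in control, 323 with cordycepin and 742 with cordyceps, log2 ratios of -1.51 and -0.52.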
